A study of Mus musculus with 18 samples.

Results

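Expression of 9 genes of the CREB, CRTC and SIK families was examined in cultured mouse brown adipocytes: the transcription factor genes Creb1, Crem and Atf1, the coactivator genes Crtc1, Crtc2 and Crtc3, and the kinase genes Sik1, Sik2 and Sik3. They were chosen by symbol, and all 9 were among the 20295 genes of the count table and among the 12156 genes that passed the filter on low counts. The cells were BAT-LgT, mouse brown preadipocytes of WT (wild-type) genotype that were immortalised by large T antigen of SV40 and differentiated in culture with dexamethasone, 3-isobutyl-1-methylxanthine, T3 and insulin, so that all groups carried the large T antigen and had gone through the same differentiation. On day 7, RNA was sequenced from 6 groups of 3 samples. Vehicle received DMSO, ISO received the β-adrenergic agonist isoproterenol (100 nM) and SR-3420 received a ligand of ABHD5 that activates the triglyceride lipase ATGL, each for 3 h. The groups Lipase Inh. + Vehicle, Lipase Inh. + ISO and finally Lipase Inh. + SR-3420 received inhibitors of ATGL and of hormone-sensitive lipase (HSL) for 1 h before the same treatments. The labels give a dose of 10 µM for SR-3420. The text of the study gives another dose for this compound, and which of them was used here was not settled. A line grown in culture is a limited model of the tissue, and the study describes the replicates as independent experiments, without saying whether each began from a separate thaw of the cells.

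The genes belong to a relay between cAMP and transcription. β-Adrenergic receptors raise cAMP, cAMP frees the catalytic subunits of protein kinase A (PKA), and PKA phosphorylates CREB, which binds cAMP response elements (CREs) in promoters and recruits the acetyltransferases CBP and p300. CRTC coactivators are held in the cytoplasm by 14-3-3 proteins while salt-inducible kinases (SIKs) phosphorylate them. PKA phosphorylates and restrains the SIKs, calcineurin can dephosphorylate the CRTCs, and the CRTCs then enter the nucleus and bind CREB. Much of the relay thus works through phosphorylation and location, which RNA-seq does not measure. Some of its genes are themselves targets of CREB. An internal promoter of Crem gives rise to ICER, a short repressor that is induced by cAMP, and Sik1 is an immediate early target whose kinase acts back on the CRTCs. In brown fat this relay is known for the induction of thermogenic genes by cold and catecholamines.

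Because several members moved together, the RefSeq promoters of build GRCm38.p6, which run from 250 bases before to 50 bases after each annotated start, were searched on both strands for the full CRE, TGACGTCA, and for the shorter CRE motif, TGACG, which is also the first part of the full CRE. Promoters of 6 of the 9 genes were matched, those of Creb1, Atf1, Crtc1, Crtc3, Sik2 and Sik3. None was available for Crem, Crtc2 and Sik1, so that the search says nothing about these genes, which include the CREB targets Crem and Sik1. The full CRE was found in 588 of 32851 promoters of this length (1.79%) and in none of the 6. The shorter motif was found in 6837 promoters (20.8%), 1 time in that of Atf1, 2 times in that of Sik2 and 3 times in that of Sik3, and not in those of Creb1, Crtc1 and Crtc3. The stretches that hold these matches are shown on the strand of the gene, with the shorter motif, or its reverse complement CGTCA, in capitals. They lie at chr15:100227756-100227785 (Atf1), chr9:51009051-51009080 (Sik2), chr9:46012683-46012712 and chr9:46012750-46012779 (Sik3, first and second stretch). The 2 matches of Sik2 lie on opposite strands, and the first of them spans the annotated start. A match is a string of letters and was not shown here to be bound.
Atf1: cgtgaccacgcggTGACGcagcacgccggc
Sik2: gcccccTGACGtcggctcaCGTCAgcgccg
Sik3, first stretch: gcagTGACGcgcgtccgcacgTGACGcgcg
Sik3, second stretch: ccgcctcccggagTGACGtctgtcggcaac

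The count table placed the genes on mouse build mm9. The CREB genes lie on chr1:64579378-64651122 (Creb1, plus strand), chr18:3266352-3327589 (Crem, minus strand) and chr15:100058290-100091679 (Atf1, plus strand). The CRTC genes lie on chr8:72906257-72963472 (Crtc1, minus strand), chr3:90058203-90068047 (Crtc2, plus strand) and chr7:87731518-87833763 (Crtc3, minus strand). The SIK genes lie on chr17:31981195-31992737 (Sik1, minus strand), chr9:50700906-50817178 (Sik2, minus strand) and chr9:45820903-46032277 (Sik3, plus strand). Reads were counted per gene, so that the isoforms of Crem, of which the GENCODE annotation of this build lists 41 transcripts, could not be told apart.

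Libraries held 10310447 to 21205032 counts with 1 exception, replicate 2 of Lipase Inh. + SR-3420, which held 4263755, and Lars2 took 18.3% of these against 0.0397% to 0.121% elsewhere. Even so, every member had at least 45 counts in every library, the lowest being Crem. Of the brown adipocyte markers, Adipoq stood at 2410 to 4030 CPM (counts scaled to a common library size) and Cebpa at 1250 to 2300 CPM, while Ucp1 ranged from 1.39 to 789 CPM over the samples. Prdm16 (19 to 65.1 CPM) and Cidea (38.6 to 77.1 CPM) of the same list were low. Fabp4 (2260 to 4450 CPM), Adipoq and Cebpa were its most abundant genes and weigh most in its sum. The 10 brown adipocyte markers summed to 8910 to 10100 CPM in Vehicle, 11300 to 12900 CPM in ISO, 9910 to 10600 CPM in SR-3420, 7900 to 8980 CPM in Lipase Inh. + Vehicle, 10200 to 10700 CPM in Lipase Inh. + ISO and 8920 to 9700 CPM in Lipase Inh. + SR-3420. The 6 preadipocyte or fibroblast markers summed to 207 to 306 CPM in Vehicle, 228 to 300 CPM in ISO, 290 to 323 CPM in SR-3420, 232 to 279 CPM in Lipase Inh. + Vehicle, 181 to 240 CPM in Lipase Inh. + ISO and 247 to 280 CPM in Lipase Inh. + SR-3420. Immune markers summed to at most 5.88 CPM from Cd68 with Ptprc at 0, endothelial markers to at most 0.524 CPM, and muscle markers to at most 1.53 CPM with Myf5 at 0. The part that these shifts in marker sums have in the results was not tested. Fewer cells of a type, less RNA per cell and changes of the listed genes themselves cannot be told apart in such samples. Ucp1 and Ppara (165 to 814 CPM), both in the brown adipocyte list, varied widely over the samples.

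Levels are given in CPM of libraries scaled by TMM factors, which set the bulk of genes level between libraries. A change is called when the p-value of edgeR's quasi-likelihood test, adjusted by Benjamini-Hochberg over all genes tested, is at most 0.05, with no threshold on its size, and errors of log2 fold changes are standard errors with 3 samples per group. Scaled by total counts alone, the median gene would stand lower by a shift of -0.31 on the log2 scale for ISO, -0.16 for SR-3420, -0.23 for ISO with inhibitors, -0.1 for SR-3420 with inhibitors and -0.15 for ISO against SR-3420. Small changes of single members therefore depend on this choice, also some that are larger than these shifts. The changes reported here are relative to the bulk of genes.

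To ask how the relay responds at the level of RNA, the 9 genes were first counted in each comparison. ISO raised 6 members (Crem, Atf1, Crtc2, Sik1, Sik2 and Sik3) and lowered Crtc1. Among all genes tested, ISO raised 26.8% and lowered 25.0%, and the share of calls that were higher was 51.7%, or 19.9% when scaled by total counts alone. The median log2 fold change was 0.37 over the members and -0.02 over all genes. SR-3420 raised 7 members (Creb1, Atf1, Crtc2, Crtc3, Sik1, Sik2 and Sik3) and lowered Crtc1, beside 26.0% and 25.4% of all genes, with 50.6% of calls higher, or 30.8% with total counts. The median was 0.25 over the members and -0.02 over all genes. ISO and SR-3420 were compared with the same Vehicle samples.

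With the lipase inhibitors alone, the edgeR test made 0 calls among the 9 members, with 2 below an unadjusted p of 0.05 (Creb1 and Sik2) and 0 calls by DESeq2. The inhibitors raised 0.485% and lowered 0.428% of all genes, and 53.2% of those calls were higher, or 42% with total counts. With the inhibitors present, ISO raised 3 members (Crem, Sik1 and Sik2) and lowered 2 (Creb1 and Crtc1), beside 29.4% and 28.3% of all genes, with 51% of calls higher, or 27.8% with total counts. SR-3420 with the inhibitors raised Sik1 and Sik2 and left the other 7 without a call, beside 2.99% of all genes raised and 1.36% lowered, with 68.8% of calls higher, or 33.1% with total counts. The median over the members was 0.09 for ISO with inhibitors, against -0.01 over all genes, and 0.11 for SR-3420 with inhibitors, against 0.

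Whether the inhibitors altered an effect was tested as a difference of log2 fold changes, with inhibitors minus without. For ISO, this difference was negative for 4 members (Atf1, Crtc2, Sik1 and Sik2) and positive for Crem, beside 16.6% and 14.9% of all genes, with 47.3% of calls positive, or 58.6% with total counts. For SR-3420, it was negative for the same 4 symbols, Atf1, Crtc2, Sik1 and Sik2, and not called for the other 5 members, beside 14.8% of all genes negative and 12.5% positive, with 45.9% of calls positive, or 55.8% with total counts. These 4 negative calls were also made without Lipase Inh. + SR-3420 replicate 2. Among the members raised by ISO, the rise of Crem was thus larger with the inhibitors, those of Sik1, Sik2, Crtc2 and Atf1 were smaller, and that of Sik3 was not shown to differ.

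**Figure D1:**
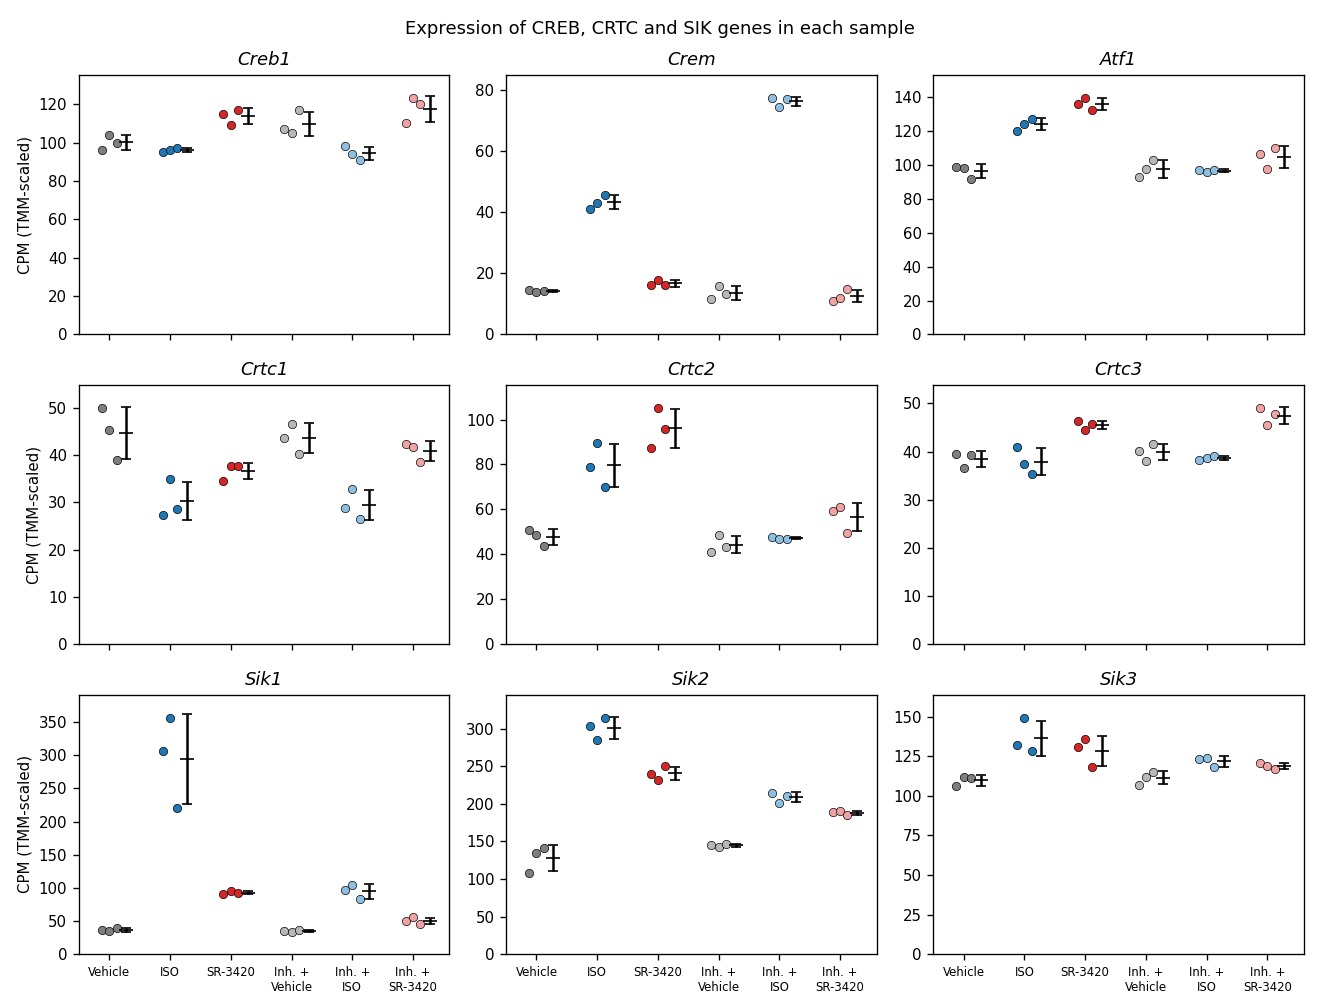
Expression of the 9 genes in every sample, in CPM of TMM-scaled libraries (vertical axis from 0) by group (horizontal axis, Inh. for Lipase Inh.), with each point a sample and each black bar the mean with SD of 3 samples. Sik1 was highest in ISO (221 to 356 CPM), whereas Crem was highest in Lipase Inh. + ISO (74.6 to 77.3 CPM).

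Among the CREB family genes, Crem, which encodes both activators and the ICER repressors, responded to ISO but was not called with SR-3420. Its level was 14.5, 13.8 and 14.1 CPM in Vehicle, 41, 43.2 and 45.6 CPM in ISO and 16.2, 18 and 16.1 CPM in SR-3420. With the inhibitors it was 11.7, 16 and 13.2 CPM after Vehicle, 77.3, 74.6 and 77 CPM after ISO treatment and 11, 12 and 14.8 CPM after SR-3420. The 3 ISO samples lay above all Vehicle and SR-3420 samples, and the 3 samples with ISO and inhibitors lay above all others. ISO raised Crem 3.06-fold (log2 fold change 1.61 ± 0.11, edgeR adjusted p = 5.24e-11), and ISO with inhibitors raised it 5.62-fold (2.49 ± 0.11, edgeR adjusted p = 2.03e-14). The difference between these effects was 0.88 ± 0.15 on the log2 scale (edgeR adjusted p = 0.000106). With SR-3420 the log2 fold change was 0.25 (95% interval 0.01 to 0.48, edgeR adjusted p = 0.0721) without and -0.08 (-0.34 to 0.17) with the inhibitors. The difference was -0.33 ± 0.17 (edgeR adjusted p = 0.149), and it was called without Lipase Inh. + SR-3420 replicate 3 (-0.51, edgeR adjusted p = 0.0309).

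Atf1, a close relative of Creb1 that binds the same sites, rose with both treatments, and the rise was smaller with the inhibitors. It stood at 98.8, 98.1 and 91.4 CPM in Vehicle, 120, 124 and 127 CPM in ISO and 136, 139 and 132 CPM in SR-3420, with no overlap between the groups. In the inhibitor groups it stood at 92.5, 97.2 and 103 CPM after Vehicle, 97.1, 95.5 and 97 CPM after ISO treatment and 106, 97.5 and 110 CPM after SR-3420, and each treated group overlapped its Vehicle group. ISO raised Atf1 1.29-fold (log2 fold change 0.37 ± 0.06, edgeR adjusted p = 3.92e-05) and SR-3420 raised it 1.41-fold (0.5 ± 0.06, edgeR adjusted p = 8.76e-07). With the inhibitors the log2 fold change was -0.01 for ISO (95% interval -0.14 to 0.11) and 0.11 for SR-3420 (-0.02 to 0.24). The difference was -0.38 ± 0.09 in both cases (edgeR adjusted p = 0.002 for ISO and 0.00246 for SR-3420). Scaled by total counts alone, the ISO effect on Atf1 was 0.06 (edgeR adjusted p = 0.589), the effect of ISO with inhibitors was -0.24 (edgeR adjusted p = 0.0262), and the differences missed the threshold (edgeR adjusted p = 0.0827 and 0.0674).

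Creb1, which encodes CREB itself, changed little. Its mean level was 100 ± 4.13 CPM (SD, n = 3) in Vehicle, 96.2 ± 0.856 CPM in ISO and 114 ± 4.1 CPM in SR-3420, and with the inhibitors 110 ± 6.54 CPM after Vehicle, 94.3 ± 3.43 CPM after ISO treatment and 118 ± 6.33 CPM after SR-3420. ISO left it without a call (log2 fold change -0.06, 95% interval -0.19 to 0.07), SR-3420 raised it 1.13-fold (0.18 ± 0.06, edgeR adjusted p = 0.0206), and ISO with inhibitors lowered it (-0.22 ± 0.06, edgeR adjusted p = 0.00552). Neither difference between effects with and without inhibitors was called (-0.16 with edgeR adjusted p = 0.184 for ISO, -0.09 with 0.517 for SR-3420). Scaled by total counts alone, Creb1 was lower with ISO (-0.36, edgeR adjusted p = 0.000382), and its rise with SR-3420 was 0.02 (edgeR adjusted p = 0.839). That rise also missed the threshold without Vehicle replicate 1 (0.15, edgeR adjusted p = 0.0747), without SR-3420 replicate 1 (0.17, 0.0581) and without SR-3420 replicate 3 (0.16, 0.0741), and likewise with no filter on low counts (0.18, 0.0571) and with only the groups compared (0.18, 0.0594).

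Of the CRTC coactivator genes, Crtc2 rose with both treatments and Crtc1 fell. Crtc2, the CRTC best known for its part in hepatic gluconeogenesis, stood at 50.8, 48.5 and 43.8 CPM in Vehicle, 79.1, 89.4 and 70.2 CPM in ISO and 87.4, 105 and 95.8 CPM in SR-3420. With the inhibitors it stood at 41.2, 48.6 and 43.3 CPM after Vehicle, 47.7, 46.9 and 47 CPM after ISO treatment and 59.1, 61.3 and 49.6 CPM after SR-3420. Without inhibitors both treated groups lay above Vehicle, whereas with inhibitors ISO lay within the Vehicle range and SR-3420 above it. ISO raised Crtc2 1.67-fold (log2 fold change 0.74 ± 0.1, edgeR adjusted p = 1.59e-06) and SR-3420 raised it 2.01-fold (1.01 ± 0.1, edgeR adjusted p = 2.25e-08). With the inhibitors the log2 fold change was 0.09 for ISO (95% interval -0.12 to 0.3, edgeR adjusted p = 0.45) and 0.34 for SR-3420 (0.13 to 0.55, edgeR adjusted p = 0.066), and the latter was called by DESeq2 (adjusted p = 0.0378). The difference was -0.65 ± 0.14 for ISO (edgeR adjusted p = 0.0011) and -0.67 ± 0.14 for SR-3420 (edgeR adjusted p = 0.00113).

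Crtc1, the CRTC best known from neurons, was lower after ISO. It stood at 49.9, 45.4 and 38.9 CPM in Vehicle, 27.3, 34.9 and 28.7 CPM in ISO and 34.6, 37.6 and 37.7 CPM in SR-3420. With the inhibitors it stood at 43.7, 46.6 and 40.3 CPM after Vehicle, 28.9, 32.8 and 26.6 CPM after ISO treatment and 42.3, 41.8 and 38.5 CPM after SR-3420. The ISO samples lay below the Vehicle samples both without and with inhibitors, and the SR-3420 samples lay below them only without. ISO lowered Crtc1 to 0.675 of its Vehicle level (log2 fold change -0.57 ± 0.11, edgeR adjusted p = 0.000126) and to 0.674 with the inhibitors (-0.57 ± 0.11, edgeR adjusted p = 9.05e-05), and the difference between these effects had a 95% interval of -0.31 to 0.31. SR-3420 also lowered it (-0.29 ± 0.1, edgeR adjusted p = 0.0231), a call that was lost without Vehicle replicate 1 (-0.2, edgeR adjusted p = 0.154), Vehicle replicate 2 (-0.28, 0.0618) or SR-3420 replicate 1 (-0.25, 0.0893). With inhibitors the value for SR-3420 was -0.1 (95% interval -0.32 to 0.13).

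Crtc3, which has been linked to catecholamine signalling in fat, was raised by SR-3420 and not called with ISO. Its mean level was 38.5 ± 1.7 CPM (SD, n = 3) in Vehicle, 37.9 ± 2.77 CPM in ISO and 45.5 ± 0.922 CPM in SR-3420, and with the inhibitors 39.9 ± 1.73, 38.7 ± 0.456 and 47.5 ± 1.75 CPM in the same order. SR-3420 raised it 1.18-fold (log2 fold change 0.24 ± 0.07, edgeR adjusted p = 0.00765), with 0.25 ± 0.07 in the presence of the inhibitors (edgeR adjusted p = 0.0524, and 0.0384 by DESeq2). The difference between these effects was 0.01 (95% interval -0.2 to 0.23). ISO gave -0.02 (-0.17 to 0.13) without and -0.05 (-0.2 to 0.1) with the inhibitors. Scaled by total counts alone, the rise with SR-3420 was 0.08 (edgeR adjusted p = 0.484), and Crtc3 was lower with ISO both without (-0.33, edgeR adjusted p = 0.00513) and with the inhibitors (-0.27, 0.0163).

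Among the kinase genes, Sik1, the inducible member of the family, had the largest change of the 9 genes with ISO. It stood at 35.9, 34.4 and 39.6 CPM in Vehicle, 307, 356 and 221 CPM in ISO and 91.3, 95.3 and 91.6 CPM in SR-3420. With the inhibitors it stood at 35.1, 33.5 and 36.5 CPM after Vehicle, 96.2, 105 and 82.7 CPM after ISO treatment and 50.6, 55.4 and 46.1 CPM after SR-3420. Every treated sample lay above every sample of the matching Vehicle group, and the ISO samples with inhibitors overlapped the SR-3420 samples without. ISO raised Sik1 8.06-fold (95% interval 6.69 to 9.71, edgeR adjusted p = 3.71e-14) and SR-3420 2.53-fold (2.11 to 3.04, edgeR adjusted p = 1.73e-08). With the inhibitors ISO raised it 2.69-fold (2.24 to 3.23, edgeR adjusted p = 3.26e-09) and SR-3420 1.43-fold (1.18 to 1.73, edgeR adjusted p = 0.029). The difference was -1.58 ± 0.18 on the log2 scale for ISO (edgeR adjusted p = 4.56e-07) and -0.83 ± 0.18 for SR-3420 (edgeR adjusted p = 0.0018). The call for SR-3420 with inhibitors was lost with total counts alone (0.41, edgeR adjusted p = 0.0811), without Lipase Inh. + Vehicle replicate 1 (0.52, 0.091), 2 (0.48, 0.102) or 3 (0.54, 0.0586), and without Lipase Inh. + SR-3420 replicate 1 (0.5, 0.0763) or 2 (0.46, 0.0956).

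Sik2, the SIK best known in adipose tissue, has to be read with a limit. Its end overlaps that of Ppp2r1b, which lies on the other strand at chr9:50665029-50702334 (plus strand, mm9) and encodes a scaffold subunit of protein phosphatase 2A. The spans in the count table share 1429 bases, 578 bases are exonic in both genes in the GENCODE annotation, and whether counting used strand is not stated, so reads of the genes in this stretch cannot be told apart. Sik2 stood at 108, 135 and 141 CPM in Vehicle, 303, 285 and 314 CPM in ISO and 240, 232 and 250 CPM in SR-3420. With the inhibitors it stood at 145, 142 and 147 CPM after Vehicle, 214, 201 and 211 CPM after ISO treatment and 189, 190 and 185 CPM after SR-3420. No treated group overlapped its Vehicle group, and the inhibitor groups with ISO or SR-3420 lay between Vehicle and the matching group without inhibitors. The counts rose 2.35-fold with ISO (log2 fold change 1.23 ± 0.08, edgeR adjusted p = 1.78e-11) and 1.88-fold with SR-3420 (0.91 ± 0.08, edgeR adjusted p = 2.86e-09). With the inhibitors they rose 1.44-fold with ISO (0.53 ± 0.08, edgeR adjusted p = 4.04e-06) and 1.3-fold with SR-3420 (0.38 ± 0.08, edgeR adjusted p = 0.00463, and 0.121 with total counts alone). The difference was -0.71 ± 0.11 for ISO (edgeR adjusted p = 2.62e-05) and -0.53 ± 0.11 for SR-3420 (edgeR adjusted p = 0.000836).

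Ppp2r1b was raised by the same treatments, with a log2 fold change of 1.05 ± 0.06 for ISO (edgeR adjusted p = 1.21e-11) and 0.73 ± 0.06 for SR-3420 (edgeR adjusted p = 4.51e-09). Its ISO effect was also smaller with the inhibitors (-0.42 ± 0.09, edgeR adjusted p = 0.00105). So was its SR-3420 effect (-0.28 ± 0.09, edgeR adjusted p = 0.0236, and 0.129 with total counts alone). With the inhibitors, Ppp2r1b still rose, by 0.63 ± 0.06 with ISO (edgeR adjusted p = 2.17e-08) and 0.45 ± 0.06 with SR-3420 (edgeR adjusted p = 0.000127). There were 0.639 to 0.745 counts of Sik2 per count of Ppp2r1b in Vehicle, 0.787 to 0.835 in ISO and 0.78 to 0.827 in SR-3420. The ratio was 0.774 to 0.814 in Lipase Inh. + Vehicle, 0.718 to 0.755 in Lipase Inh. + ISO and 0.723 to 0.795 in Lipase Inh. + SR-3420. The ratio was thus higher with ISO than with Vehicle without the inhibitors and lower with them.

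**Figure D2:**
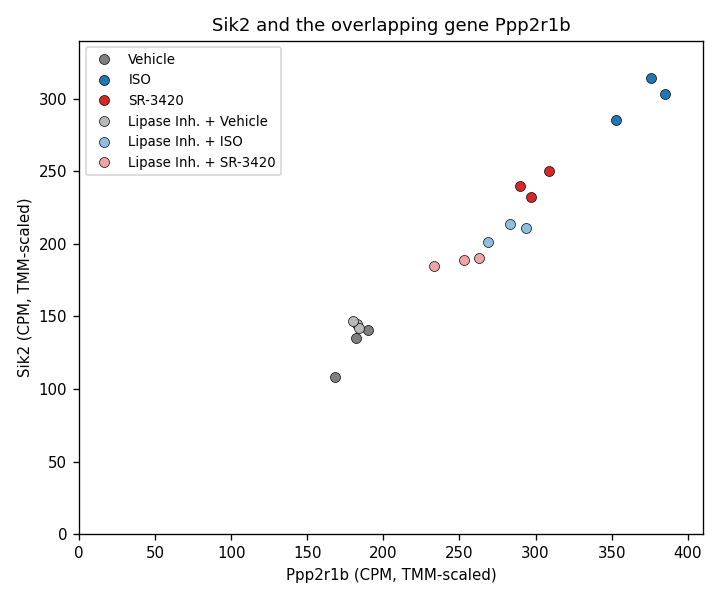
Sik2 (vertical axis) against Ppp2r1b (horizontal axis), both in CPM of TMM-scaled libraries, with each point 1 of the 18 samples coloured by group. Both genes are highest in the 3 ISO samples and lowest in the Vehicle groups without and with inhibitors.

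Sik3, the largest SIK gene of the 3 by span, changed little. Its mean level was 109 ± 3.46 CPM (SD, n = 3) in Vehicle, 137 ± 10.7 CPM in ISO and 128 ± 9.26 CPM in SR-3420, and with the inhibitors 111 ± 4.1, 122 ± 3.21 and 119 ± 2.13 CPM in the same order. It rose 1.25-fold with ISO (log2 fold change 0.32 ± 0.07, edgeR adjusted p = 0.000391) and 1.17-fold with SR-3420 (0.23 ± 0.07, edgeR adjusted p = 0.00671), and scaled by total counts alone these values were 0.01 (edgeR adjusted p = 0.906) and 0.07 (0.513). With the inhibitors no change was called (0.13 for ISO with a 95% interval of -0.01 to 0.27, and 0.09 for SR-3420 with -0.05 to 0.24), and neither difference between effects was called (-0.19 with edgeR adjusted p = 0.132, and -0.14 with 0.311).

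**Figure D3:**
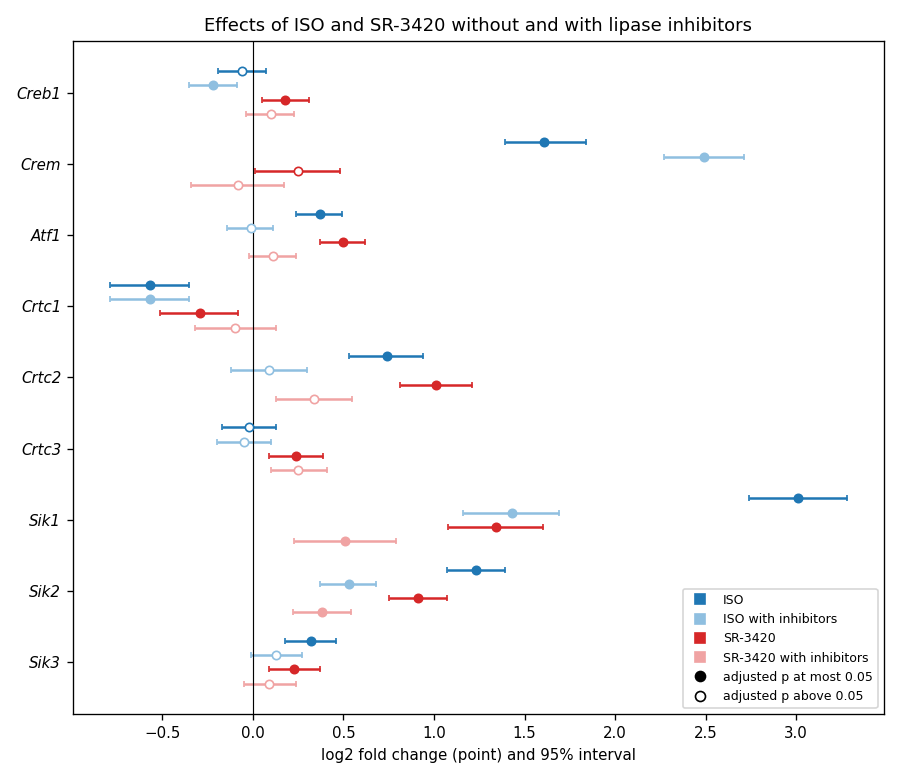
Log2 fold change against the matching Vehicle group (horizontal axis) for each of the 9 genes (vertical axis), with 95% intervals, for ISO and SR-3420 without and with lipase inhibitors; filled points passed an adjusted p of 0.05. Sik1 has the largest value with ISO (3.01) and Crem the largest with ISO and inhibitors (2.49), both called also with total counts alone, a scaling that loses the calls of Atf1 and Sik3 with ISO, of Creb1, Crtc3 and Sik3 with SR-3420 and of Sik1 and Sik2 with SR-3420 and inhibitors, and adds lower calls of Creb1 and Crtc3 with ISO and of Atf1 and Crtc3 with ISO and inhibitors.

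**Figure D4:**
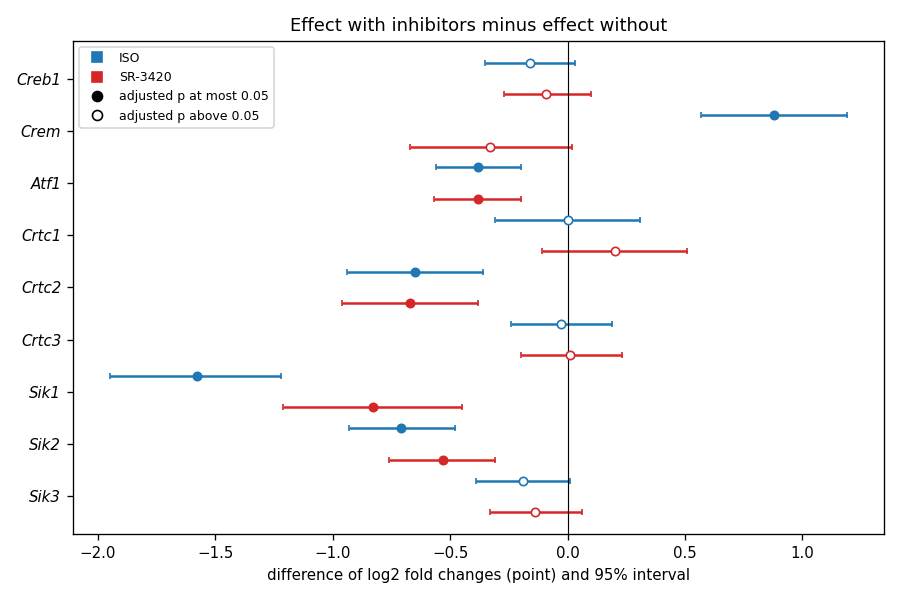
Effect with lipase inhibitors minus effect without (horizontal axis, difference of log2 fold changes with 95% interval) for each gene (vertical axis), for ISO and SR-3420; filled points passed an adjusted p of 0.05. For ISO, Crem lies to the right of 0 (0.88), and Sik1 (-1.58), Sik2 (-0.71), Crtc2 (-0.65) and Atf1 (-0.38) lie to the left.

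Because SR-3420 acts on lipolysis without a β-adrenergic signal, the effects of ISO and SR-3420 were also compared directly, without inhibitors. ISO was above SR-3420 for Crem (2.58-fold, log2 difference 1.37 ± 0.1, edgeR adjusted p = 3.05e-09), Sik1 (3.18-fold, 1.67 ± 0.12, edgeR adjusted p = 9.52e-10) and Sik2 (1.25-fold, 0.32 ± 0.07, edgeR adjusted p = 0.00268). It was below SR-3420 for Creb1 (-0.24 ± 0.06, edgeR adjusted p = 0.00692), Crtc2 (-0.27 ± 0.09, edgeR adjusted p = 0.0358) and Crtc3 (-0.26 ± 0.07, edgeR adjusted p = 0.00932). These are 3 members higher and 3 lower, beside 15.8% and 13.9% of all genes, with 53.1% of calls higher, or 20.3% with total counts. For the other 3 members the difference was -0.13 for Atf1 (95% interval -0.26 to 0), -0.28 for Crtc1 (-0.5 to -0.05, edgeR adjusted p = 0.0569) and 0.09 for Sik3 (-0.05 to 0.23). Crtc1 was called lower with the replicate number as a block (-0.29, edgeR adjusted p = 0.0155), with a stricter filter (-0.28, 0.0473), with total counts alone (-0.42, 0.00711) and without ISO replicate 2 (-0.4, 0.0152), and Atf1 with total counts alone (-0.28, 0.0211). The call for Crtc2 was lost without ISO replicate 1 (-0.26, edgeR adjusted p = 0.0927), ISO replicate 3 (-0.19, 0.166), SR-3420 replicate 2 (-0.2, 0.153) or SR-3420 replicate 3 (-0.27, 0.0835), and that for Sik2 with total counts alone (0.17, 0.146).

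To set genes side by side, levels were divided by the counted length of each gene (RPKM). In Vehicle, Sik2 had the highest mean level at 43.2 RPKM, with the limit on its reads given above, and Atf1 followed at 41.3 RPKM, with ranges over samples that overlapped. Crtc2 stood at 18.1 RPKM and Sik3 at 17.4 RPKM, whose ranges also overlapped, and Creb1 stood apart at 11.9 RPKM. Sik1 (8.12 RPKM), Crtc1 (7.89 RPKM) and Crtc3 (7.54 RPKM) overlapped in order, and Crem was lowest at 5.98 RPKM, below all samples of Crtc3. In ISO, Sik2 (101 ± 4.98 RPKM, SD, n = 3) and Sik1 (65.3 ± 15.2 RPKM) were highest, Atf1 stood at 53.2 ± 1.5 RPKM, within the range of Sik1 (49 to 79 RPKM), and Crem at 18.3 ± 0.969 RPKM stood above Creb1 at 11.4 ± 0.102 RPKM.

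The share of each gene in the summed RPKM of its own subfamily does not depend on how libraries are scaled. In the CREB family, Crem made up 10.1 ± 0.418% (SD, n = 3) in Vehicle, 22.1 ± 0.485% in ISO, 9.02 ± 0.437% in SR-3420, 9.51 ± 1.39% in Lipase Inh. + Vehicle, then 38 ± 0.302% in Lipase Inh. + ISO and 8.27 ± 0.933% in Lipase Inh. + SR-3420. Atf1 was the most abundant of the 3 in every group, with 69.8 ± 1.02% in Vehicle and 48.8 ± 0.277% in Lipase Inh. + ISO. In the CRTC family, Crtc2 made up 54 ± 0.794% in Vehicle and 70.3% in both ISO (± 1.3) and SR-3420 (± 1.81), against 52.1 ± 2.01%, 58.5 ± 1.14% and 56.5 ± 2.52% in the corresponding inhibitor groups. Crtc1 made up 23.4 ± 1.32% in Vehicle, 12.4 ± 1.05% in ISO and 12.5 ± 0.41% in SR-3420, and both treated groups lay below Vehicle. In the corresponding inhibitor groups it made up 23.7 ± 1.17%, 16.9 ± 1.54% and 18.9 ± 0.393%, and both treated groups again lay below their Vehicle group. A share also falls when another gene of the subfamily rises, as Crtc2 did. The level of Crtc1 itself fell to 0.675 with ISO and to 0.817 with SR-3420. In the SIK family, Sik1 made up 11.9 ± 1.16% in Vehicle, 34.4 ± 5.99% in ISO and 16.8 ± 0.547% in SR-3420, and 10.4 ± 0.262%, 18.9 ± 2.03% and 12 ± 0.855% with the inhibitors. The RPKM and shares of Crem rest on a single counted length (2362 bases) in every group. Isoforms of other lengths, such as the short ICER, were not told apart. These shares are descriptions and were not tested.

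**Figure D5:**
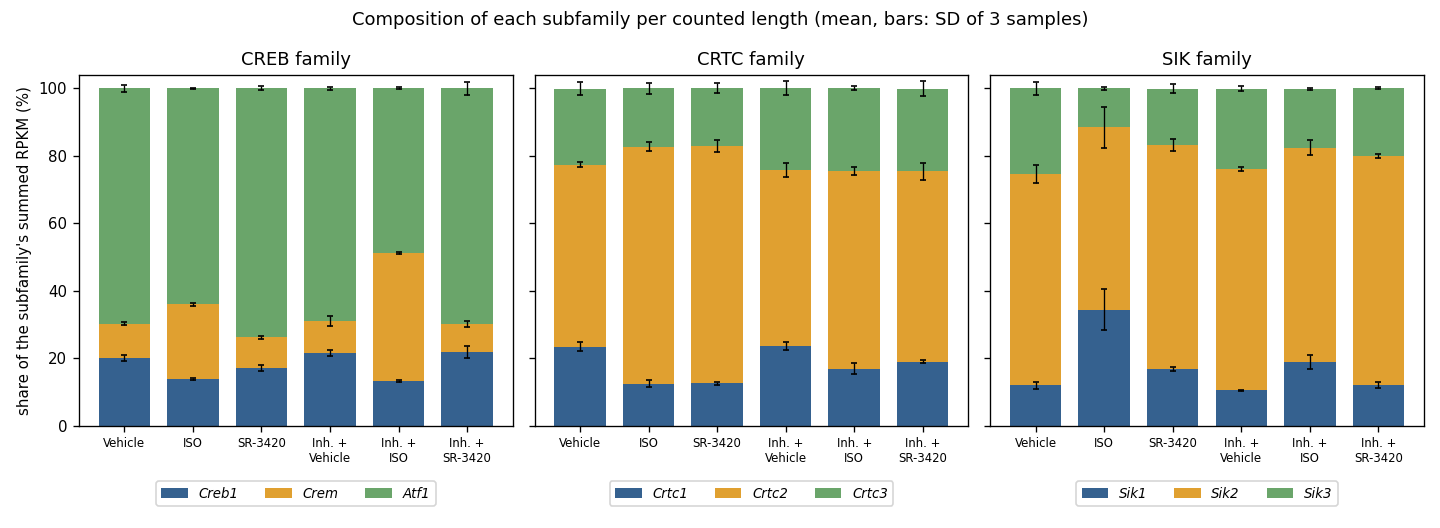
Share of each gene in the summed RPKM of its subfamily (vertical axis, %) by group (horizontal axis, Inh. for Lipase Inh.), as stacked means of 3 samples with the SD of each share drawn at its upper edge. Crem grows from 10.1% in Vehicle to 22.1% in ISO and 38% in Lipase Inh. + ISO, and Sik1 from 11.9% in Vehicle to 34.4% in ISO and 18.9% in Lipase Inh. + ISO.

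Genes that act around the 9 members were followed in 5 lists. The lists were made with earlier results of these data known and are described, not tested. Their ISO calls stand beside the 26.8% of all genes that ISO raised and the 25.0% that it lowered, with a median of -0.02 over all genes. Upstream, 8 of 9 genes for PKA subunits and inhibitors were tested, and ISO raised 4 of them and left the other 4 without a call (median log2 fold change 0.24), beside 26.8% of all genes raised and 25.0% lowered. They were Prkar1a, Prkar2b, Prkar2a and Pkig, of which Prkar2a was named after its values were seen. Prkar1a, a regulatory subunit that holds the catalytic subunits inactive, went from 347 ± 13 CPM (SD, n = 3) in Vehicle to 701 ± 25.2 CPM in ISO and from 345 ± 7.52 to 929 ± 21.5 CPM with the inhibitors, and the difference between the effects was 0.41 ± 0.08 (edgeR adjusted p = 0.000449). Prkar2b, the regulatory subunit most abundant in fat, went from 569 ± 47.5 to 1100 ± 165 CPM and, with the inhibitors, from 536 ± 17.2 to 562 ± 11.8 CPM, and the difference was -0.88 ± 0.13 (edgeR adjusted p = 1.39e-05). Pkig, an inhibitor of PKA, rose by 0.48 ± 0.1 on the log2 scale (edgeR adjusted p = 0.000433), and scaled by total counts alone by 0.17 (0.183).

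Of the acetyltransferase coactivators and other CREB/ATF genes, 10 of 11 were tested, and ISO raised 3 (Crebzf, Crebbp and Creb5) and lowered Crebl2, with a median of 0.04. The count raised is near the 26.8% of all genes, the count lowered is under the 25.0%, and neither is a result about the list. Crebzf, a bZIP cofactor, went from 143 ± 3.88 CPM (SD, n = 3) to 241 ± 4.57 CPM, and from 138 ± 4.16 to 140 ± 6.2 CPM with the inhibitors, a difference of effects of -0.73 ± 0.08 (edgeR adjusted p = 2.52e-07). Crebl2 fell by 1 on the log2 scale (edgeR adjusted p = 4.42e-08). Crebbp, which encodes CBP, rose by 0.39 ± 0.1 (edgeR adjusted p = 0.00269, and 0.45 with total counts alone). Creb5 was named after its values were seen, and its level was low, with means of 1.1 CPM in Vehicle and 2.4 CPM in ISO.

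Of the LKB1 complex, which activates the SIKs, and the AMPK-related kinases, 14 of 16 genes were tested. ISO raised 3 (Cab39, Snrk and Mark3) and lowered 5 (Stradb, Nuak1, Strada, Cab39l and Mark2), with a median of 0.07. These counts are not far from the shares of all genes (26.8% raised and 25.0% lowered) and are no result about the list. Cab39, the scaffold of the LKB1 complex, rose from 230 ± 14 to 335 ± 12.6 CPM (SD, n = 3), whereas Stradb, its pseudokinase, fell from 26.5 ± 1.65 to 12.5 ± 1.02 CPM and Nuak1 from 30.2 ± 3.28 to 16 ± 1.26 CPM. Of the genes for calcineurin, 14-3-3 proteins and class IIa HDACs, which are also SIK substrates, 14 of 15 were tested, and ISO raised 5 (Hdac4, Ywhaz, Ywhag, Ywhab and Ywhae) and lowered 4 (Sfn, Hdac5, Ywhah and Ppp3ca), with a median of -0.02. These counts too are not far from the 26.8% and 25.0% of all genes. Hdac4 rose from 8.97 ± 1.25 to 19.4 ± 0.839 CPM and the 14-3-3 gene Ywhaz from 363 ± 11.4 to 681 ± 44.9 CPM, with log2 fold changes of 1.12 ± 0.12 (edgeR adjusted p = 1.22e-07) and 0.91 ± 0.06 (edgeR adjusted p = 9.07e-11), and Ywhag rose by 0.78 ± 0.08 (edgeR adjusted p = 2.75e-08). Snrk, Mark3, Strada, Cab39l, Mark2, Ywhab, Ywhae, Sfn, Hdac5, Ywhah and Ppp3ca were named after their values were seen. The level of Sfn was low, with means of 3.7 CPM in Vehicle and 1.46 CPM in ISO.

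Downstream, 19 of 22 known CREB target genes were tested, and ISO raised 17 and lowered Rgs2 and Cited2, with a median log2 fold change of 1.67, beside 26.8% of all genes raised and 25.0% lowered. SR-3420 raised 15 and lowered 2, with a median of 1.54, beside 26.0% and 25.4% of all genes. With the inhibitors ISO raised 10 and lowered 3 (median 0.42), beside 29.4% and 28.3% of all genes, and SR-3420 raised 8 and lowered 1 (median 0.21), beside 2.99% and 1.36%. The difference between the ISO effects was negative for 11 of the 19 and positive for Rgs2, beside 16.6% and 14.9% of all genes. That between the SR-3420 effects was negative for 13 and positive for Rgs2, beside 14.8% and 12.5% of all genes. Nr4a1, an immediate early nuclear receptor, went from 13.9 ± 0.554 CPM (SD, n = 3) in Vehicle to 414 ± 65.5 CPM in ISO and 115 ± 6.36 CPM in SR-3420, and from 13.4 ± 1.54 to 68.3 ± 2.7 CPM with ISO and inhibitors (difference of effects -2.56 ± 0.15, edgeR adjusted p = 5.05e-11). In contrast, Nr4a3 of the same family reached 119 ± 5.68 CPM in ISO and 116 ± 14.9 CPM in Lipase Inh. + ISO, beside at most 0.316 CPM in Vehicle and 0.412 CPM in Lipase Inh. + Vehicle, and the cAMP phosphodiesterase gene Pde4d reached 588 ± 26.2 and 584 ± 30 CPM from 31.1 ± 3.23 and 28.9 ± 4.9 CPM. The difference of effects was not called for Pde4d (0.09, 95% interval -0.18 to 0.36), and for Nr4a3 no fold is given, since its Vehicle levels rest on few counts. Rgs2 and Cited2 were named after their values were seen.

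Finally, the genes whose log2 CPM followed each member most closely over the 18 samples were listed among 9410 genes. The samples share treatments, so that these correlations describe shared responses to the 6 conditions. Crem was closest to Prkar1a (Pearson r = 0.992), Gja1 and Dld, Sik1 to Picalm (0.983), Mgrn1 and Nr4a1, Crtc2 to Urb1 (0.98), Aldh18a1 and Ppp1r15b, and Atf1 to Ppp1r15a (0.975), Pdk4 and Siah2. Sik2 was closest to the overlapping Ppp2r1b (0.982), then Cpeb4 and Tcf12. The closest genes were less alike for Sik3 (Mdn1, 0.936), Crtc1 (Fam189a2, 0.94), Creb1 (Ccdc6, 0.919) and Crtc3 (Usp53, 0.839). Among the members themselves, Atf1 and Crtc2 had an r of 0.93, Sik1 and Sik2 an r of 0.91, Crem and Sik1 an r of 0.67, Crem and Atf1 an r of 0.03 and Crem and Crtc1 an r of -0.84.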

How the data were processed

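RNA-seq was performed on differentiated BAT-LgT cells, with 18 samples in 6 groups taken from the sample titles. Per the labels and the methods of the study, the authors prepared TruSeq libraries, aligned reads to mm9 with STAR 2.4.2a, used HOMER for tag directories and iRNA-seq for the counting per gene. The deposited values are whole-number counts, neither normalised nor filtered, and 0 of its sample columns were left unused. Starts were converted to count from 1.

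The tests were run with edgeR 4.0.16 in R 4.3.3 (filterByExpr with a minimum count of 10 and a minimum total of 15, TMM factors, and 1 quasi-likelihood model with a mean per group over all 18 samples). Adjustment was by Benjamini-Hochberg over all genes tested. The study's fold threshold was left out, since smaller changes of single genes were of interest. Alternatives were DESeq2 1.42.0, RLE factors, total counts alone, other filters (none, or a group mean count of at least 50), only the groups compared, the replicate number as a block, and each sample left out. The scripts were tested on simulated counts. CPM and RPKM used TMM-scaled library sizes, and no molecular identifiers are described, so that the depth limits cover counting error only. Squared differences between replicates, averaged over genes with libraries scaled by their totals, exceeded sampling noise in every pair. They did so by 3.61 to 13.6 times in the pairs without the shallow Lipase Inh. + SR-3420 replicate 2, and by 177 and 243 times in those with it. A mean over genes can be carried by a single gene, and Lars2 took 18.3% of the counts of that replicate. These 2 values therefore need not describe the typical gene, and the part of Lars2 in them was not tested.

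The 9 members and the lists were chosen with earlier results of these data known. Named beside the members are, of each list, up to 3 genes with the largest ISO effect among those called whose log2 CPM averages 3 or more, and for each member the 3 genes most correlated with it (log2 CPM with a prior count of 2). Pkib, Creb3l4, Brsk1, Brsk2, Hdac9, Areg, Sst and Dio2 did not pass the filter. Figures were drawn with matplotlib 3.10.9.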

Additional observations from a re-analysis of the deposited data

Results flagged for a closer look

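The effect of a treatment differed with and without lipase inhibitors, by the interaction test of edgeR, in 9 cases among the members. For ISO, the difference of log2 fold changes was 0.88 for Crem, -1.58 for Sik1, -0.71 for Sik2, -0.65 for Crtc2 and -0.38 for Atf1. For SR-3420, it was -0.83 for Sik1, -0.53 for Sik2, -0.67 for Crtc2 and -0.38 for Atf1. The values of Sik2 carry the limit that its reads could not be told apart from those of Ppp2r1b in the stretch that both genes cover. The test of Atf1 missed the threshold in both cases when libraries were scaled by total counts alone.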

How the results depend on the processing

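The changes of Sik1, Crem, Crtc2 and Sik2 with ISO, of Crtc1 with ISO, of Sik1, Sik2, Crtc2 and Atf1 with SR-3420, and the interaction calls of Sik1, Sik2, Crtc2 and Crem kept direction and side of the threshold in every alternative. Scaled by total counts alone, members called lower were 3 with ISO, 4 with ISO and inhibitors and 5 for ISO against SR-3420. Members called higher were 4 with SR-3420 without and 0 with inhibitors, where edgeR with TMM factors called 2 (4 at an unadjusted p below 0.05) and DESeq2 called 4. With that scaling, genes called higher were 1496 with ISO, 1947 with SR-3420, 29 with the inhibitors alone, 1973 with ISO and inhibitors, 114 for SR-3420 plus inhibitors and 775 for ISO against SR-3420, and genes called lower were 6004 with ISO and 3035 for ISO against SR-3420. Uncalled values that changed sign with it were 0 for Atf1 and 0 for Ppp2r1b (inhibitors alone), -0.13 for Crtc2 and -0.1 for Sik3 (ISO with inhibitors), -0.01 for Creb1 and -0.01 for Sik3 (SR-3420 with inhibitors), 0.08 for Crtc1 and 0.05 for Crtc3 (ISO interaction), and -0.06 for Sik3 (ISO against SR-3420). The Vehicle levels became 13.2 (Creb1), 6.61 (Crem), 45.6 (Atf1), 20.1 (Crtc2), 8.33 (Crtc3), 8.98 (Sik1) and 19.2 RPKM (Sik3).

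DESeq2 called 99 genes higher and 82 lower with the inhibitors alone, and 4 members higher with SR-3420 and inhibitors. With only the groups compared, 24 genes were higher and 23 lower with the inhibitors alone, and 231 higher with SR-3420 and inhibitors. Without a filter the ISO interaction of Crtc1 was 0.01. Replicate numbers were not taken to pair the samples in the main fit. Of 45 same-numbered pairs, 28 correlated over 0.1 in their deviations (range -0.114 to 0.28), and 12 of 18 samples correlated best with their own number. The mean correlation was -0.0118 for number 1, 0.15 for number 2 and 0.19 for number 3. These values do not settle whether the samples were paired, and some calls depend on this choice. With the replicate number as a block, 147 genes were higher and 122 lower with the inhibitors alone, 577 higher and 275 lower with SR-3420 and inhibitors, 4 members were higher in the latter (Crtc2 and Crtc3 added, adjusted p = 0.0102 and 0.0352), Crtc1 was lower with ISO than with SR-3420 (-0.29, adjusted p = 0.0155), and the ISO interaction of Crtc1 was 0.

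With each sample left out in turn, members called lower with SR-3420 numbered 0 to 1 and members called higher with SR-3420 and inhibitors 1 to 3, genes called with the inhibitors alone 28 to 82 higher and 28 to 68 lower, and genes called with SR-3420 and inhibitors 206 to 337 higher and 91 to 147 lower. Uncalled values that changed sign ranged, with the inhibitors alone, from -0.18 to 0.04 (Crem), -0.02 to 0.05 (Atf1), -0.14 to 0.04 (Crtc1), 0 to 0.05 (Sik3) and -0.03 to 0.05 (Ppp2r1b). They ranged from -0.08 to 0.03 for Crtc3 with ISO, -0.05 to 0.03 for Atf1 with ISO and inhibitors, and -0.26 to 0.04 for Crem with SR-3420 and inhibitors. For the ISO interaction they ranged from -0.09 to 0.12 (Crtc1), -0.07 to 0.03 (Crtc3) and -0.04 to 0.18 (Pde4d), and for the SR-3420 interaction from -0.02 to 0.05 (Crtc3). The cause of these shifts was not tested, beyond the smaller number of samples left in a fit. With 3 samples per group, log2 differences near 0.1 could not be called for most members, and the shallow replicate 2 of Lipase Inh. + SR-3420 was the library with the lowest total.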
